A study of Mus musculus with 6 samples.

Results

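The genes described here are the 4 Notch receptors Notch1, Notch2, Notch3 and Notch4, the 4 ligands Dll1, Dll4, Jag1 and Jag2, and the target genes Hes1 and Hey1. They were listed by symbol, with earlier results of these data known, and are 10 of the 25239 genes listed in the count table. All 10 passed the filter on low counts and are among the 15256 genes tested.

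Notch receptors are single-pass membrane proteins that are activated by ligands of the Delta-like and Jagged families on a neighbouring cell. Ligand binding lets a metalloprotease and then gamma-secretase cut the receptor, and the released intracellular domain enters the nucleus, joins the DNA-binding protein Rbpj and Mastermind coactivators, and switches on repressor genes of the Hes and Hey families. Notch4 and Dll4 are known mainly from endothelial cells, Notch3 from mural cells around vessels, and the other members are used by many tissues, including epithelia and progenitor cells.

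RNA was measured by bulk sequencing in thyroid organoids grown from 1 line of mouse embryonic stem cells, built on G4 RosaLuc with a TRE-Nkx2-1-Pax8 and a bTg-NES-BrafV637E-ERT2 transgene. In every group the cells received doxycycline at 1 µg/ml for 5 days, which turns on the thyroid transcription factors Nkx2-1 and Pax8, then 8-Br-cAMP, were enriched for follicles and were collected at day 31. All groups carry a BrafV637E-ERT2 fusion under the bovine thyroglobulin promoter, so the oncogene is made in thyroid cells and stays inactive until 4-hydroxytamoxifen (4OHT) is given. The cAMP organoids received 8-Br-cAMP without 4OHT, the 4OHT organoids 8-Br-cAMP with 1 µM 4OHT for 5 days, and the PD+LY organoids 8-Br-cAMP and 4OHT with 250 nM PD0325901, which inhibits MEK, and 5 µM LY204002, which inhibits PI3K, for the last 3 days. Each group has 2 libraries, each from pooled wells. The line is a selected clone, cells other than thyroid cells remain after enrichment, and organoids that received 4OHT without carrying the fusion were not analysed here, so an effect of 4OHT itself cannot be told apart from that of the oncogene. According to the methods, organoids given inhibitors had 4OHT for 4 days before these 3 days and kept it throughout, longer than the 5 days of the 4OHT group, so the length of 4OHT cannot be told apart from the inhibitors in comparisons with that group. The 3 comparisons also share libraries and are not independent of each other.

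The libraries held 14898409 to 20637959 counts, so that 1 count corresponded to 0.0486 to 0.0667 CPM, the count scaled to library size. The summed CPM of 10 thyroid follicular markers, led by thyroglobulin, was 1660 and 1110 in cAMP, 574 and 767 in 4OHT and 2000 and 998 in PD+LY, and 10 pluripotency markers summed to between 4000 and 4580 CPM in every library. In bulk RNA, fewer cells of a type and less RNA per cell cannot be told apart, and this holds for every value below. A gene is said to have risen or fallen where the adjusted p of edgeR's quasi-likelihood test was under 0.05, and is called a differentially expressed gene (DEG) where the change was also at least 2-fold. Log2 fold changes are given with their standard error (SE), and levels as CPM after TMM normalization. Single pluripotency markers, named after their values were seen, moved in opposite directions beneath their steady sum. With the inhibitors relative to cAMP, 7 of the 10 had positive values and 3 negative ones (median 0.23). Lin28a was a DEG that fell (−2.35, SE 0.10, adjusted p = 6.85e-08), and Tdgf1 (−0.86) and Utf1 (−0.98) fell by less than 2-fold. Nanog (0.89, SE 0.10, adjusted p = 9.39e-05) and Klf4 (0.75) rose by less than 2-fold.

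The start sites of the 3 members that were DEGs in any comparison, Notch4, Dll1 and Dll4, are shown because their levels set these genes apart from the other members in the results below. The windows are those of RefSeq on GRCm38.p6 and run 5′ to 3′ on the gene's strand, from 250 bases before to 50 after the start. Notch4 lies on the plus strand at chr17:34564045-34564344, Dll4 on the plus strand at chr2:119325534-119325833, and Dll1, which has 2 windows, is shown by the one that lies farther upstream, on the minus strand at chr17:15376883-15377182. Capitals mark TGANTCA, a looser form of the core bound by AP-1 factors, which are known as effectors downstream of MEK and ERK. Any base was allowed in its middle, so a match need not be the AP-1 core. This motif was searched after the data had been seen.
Notch4: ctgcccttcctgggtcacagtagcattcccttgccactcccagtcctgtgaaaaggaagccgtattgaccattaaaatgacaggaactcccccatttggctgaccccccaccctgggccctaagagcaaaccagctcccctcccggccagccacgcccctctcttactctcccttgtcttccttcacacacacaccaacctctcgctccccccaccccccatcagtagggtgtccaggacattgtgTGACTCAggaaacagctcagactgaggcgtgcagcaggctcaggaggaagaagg
Dll4: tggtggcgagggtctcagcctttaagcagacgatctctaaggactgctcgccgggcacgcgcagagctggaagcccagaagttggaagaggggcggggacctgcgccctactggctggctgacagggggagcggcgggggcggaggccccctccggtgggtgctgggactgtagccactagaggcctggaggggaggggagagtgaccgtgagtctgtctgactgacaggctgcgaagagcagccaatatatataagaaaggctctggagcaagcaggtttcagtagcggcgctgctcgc
Dll1: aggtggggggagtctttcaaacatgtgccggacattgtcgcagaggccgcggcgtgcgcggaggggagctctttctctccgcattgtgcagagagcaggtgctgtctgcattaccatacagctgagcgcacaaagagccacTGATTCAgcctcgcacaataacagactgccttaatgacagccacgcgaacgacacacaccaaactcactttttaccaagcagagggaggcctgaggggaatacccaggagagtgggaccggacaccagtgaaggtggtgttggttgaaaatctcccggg

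Windows were found for 8 of the 10 members, 9 windows in all, with none used for Hes1 and Hey1. TGANTCA, which reads the same on both strands except at its middle base, was in 2 of the 9 windows and not in the Dll1 window left out above. It started 4 bases before the start in Notch4, as TGACTCA, and 109 bases before it in Dll1, as TGATTCA, and 7.81% of all 32851 windows of this length hold it. These distances count from the RefSeq starts. The GENCODE gene spans given below begin at other bases for Notch4 and Dll1, and the Notch4 match lies inside its GENCODE span. The Rbpj core TGGGAA, searched on both strands, was in 0 of the 9 windows and in 25.6% of all windows. These matches describe letters only and say nothing of binding.

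To ask how levels compare between the genes, CPM was divided by the length of each gene's merged exons in kilobases. On this scale the mean of Hes1 was the highest in all 3 groups, with a level of 15.6 ± 2.01 CPM per kilobase (SD, n = 2) in cAMP, 13.3 ± 2.26 in 4OHT and 10.6 ± 0.0861 with the inhibitors, where its range overlapped that of Notch2 (9.70 ± 1.61), which was the higher gene in PD+LY library 1. In cAMP, Notch3 (9.52), Notch1 (7.97) and Notch2 (7.56) followed, with overlapping ranges between neighbours, then Hey1 (6.12), Jag2 (4.57), Dll1 (4.50), Jag1 (3.39), Notch4 (2.00) and Dll4 (0.736). Of these lower neighbours, Jag2 and Dll1 overlapped and the others did not. The overlapping neighbours in 4OHT were Notch1 and Notch3, Notch3 and Notch2, Dll1 and Jag2, and Hey1 and Jag1, and in PD+LY, besides Hes1 and Notch2, Jag2 and Jag1. Notch4 and Dll4 were the lowest 2 of the 10 genes in every group, at 0.633 and 0.288 CPM per kilobase in 4OHT and 0.408 and 0.117 in PD+LY.

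The members lie on 5 mouse chromosomes of GRCm38. Notch1 (chr2:26457903-26516663), Jag1 (chr2:137081456-137116644), Notch3 (chr17:32120820-32166852), Dll1 (chr17:15367354-15376872), Jag2 (chr12:112907819-112929776) and Hey1 (chr3:8663359-8667256) are on the minus strand, and Dll4 (chr2:119325784-119335962), Notch2 (chr3:98013527-98150361), Notch4 (chr17:34564268-34588503) and Hes1 (chr16:30064384-30067796) on the plus strand. Exons of Notch1, Notch3, Dll1 and Dll4 overlap annotated genes on the opposite strand, and those of Notch2 one on its own strand. Since counting ignored strand, reads of these pairs cannot be told apart. The overlapping genes 0610009E02Rik (at Notch1) and Gm14207 (at Dll4) had 0 to 6 counts in any library. Gm13568 (at Notch1), Gm42820 (at Notch2), Gm17276 (at Notch3) and A930024N18Rik (at Dll1) are not listed in the count table under these names.

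**Figure D1:**
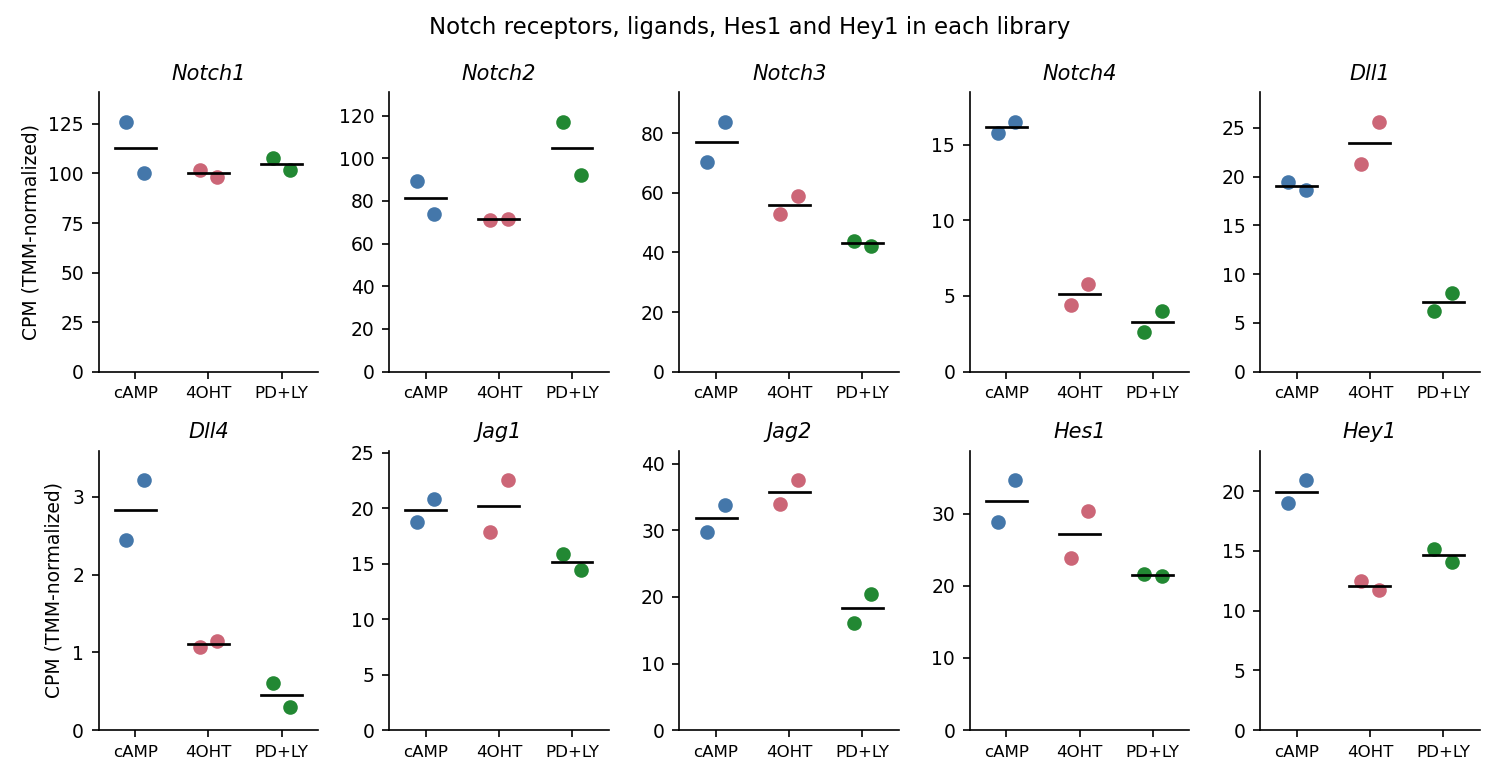
Level of each of the 10 genes in the 6 libraries, as TMM-normalized CPM on linear axes that start at 0. Points are single libraries, 2 per group, and bars are group means. Notch4 and Dll4 stand highest in both cAMP libraries, and Dll1 and Jag2 stand lowest in both PD+LY libraries.

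Among the receptors, Notch4 changed most. Notch4, a receptor known mainly from endothelial cells, was at 15.8 and 16.5 CPM in the cAMP libraries, 4.40 and 5.81 in the 4OHT libraries and 2.60 and 3.99 in the PD+LY libraries, from 251 and 339, 66 and 106, and 51 and 82 counts. Both cAMP libraries lay above all 4 others, and none of the groups overlapped. Notch4 fell 3.14-fold in 4OHT relative to cAMP (log2 fold change −1.65, SE 0.23, edgeR adjusted p = 0.00144) and 4.89-fold in PD+LY relative to cAMP (−2.29, SE 0.24, adjusted p = 4.37e-05), and was a DEG in both comparisons. Between PD+LY and 4OHT the difference was −0.64, with an interval of −1.19 to −0.09 and an adjusted p of 0.09, which did not pass. No other annotated gene shares exon sequence with Notch4.

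Notch3, a receptor known from vascular smooth muscle and pericytes, was at 70.2 and 83.7 CPM in cAMP, 52.7 and 58.8 in 4OHT and 43.9 and 42.2 in PD+LY. The 3 groups did not overlap, with cAMP highest and PD+LY lowest. Notch3 fell in 4OHT relative to cAMP (−0.47, SE 0.12, adjusted p = 0.0343), in PD+LY relative to 4OHT (−0.37, SE 0.12, adjusted p = 0.0447) and in PD+LY relative to cAMP (−0.84, SE 0.12, adjusted p = 0.000396), each time by less than 2-fold. The first of these passed in 9 of 12 other ways to process the data, with adjusted p values up to 0.31, the second in 5 of 12, with values up to 0.318, and the third in 12 of 12.

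Notch2, a receptor of many epithelial and mesenchymal cells, was at 89.3 and 73.7 CPM in cAMP, 71.1 and 71.7 in 4OHT and 117 and 92.3 in PD+LY. Both PD+LY libraries lay above the other 4. Notch2 rose 1.46-fold in PD+LY relative to 4OHT (log2 fold change 0.55, SE 0.13, adjusted p = 0.0108) and was the 1 member to rise in any comparison. The difference was 0.37 without PD+LY library 1, and the adjusted p reached 0.0906 among the alternatives. Relative to cAMP, Notch2 was 0.36 higher in PD+LY (interval 0.08 to 0.64, adjusted p = 0.0609) and −0.19 different in 4OHT (interval −0.48 to 0.10, adjusted p = 0.416), and neither passed.

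Notch1, the receptor best known from progenitor cells and lymphocytes, was at 126 and 100 CPM in cAMP, 102 and 98.3 in 4OHT and 108 and 102 in PD+LY. The 4OHT and PD+LY values lay within or next to the range of the cAMP libraries. No comparison of Notch1 passed, with log2 differences of −0.18 (interval −0.43 to 0.07, adjusted p = 0.382) in 4OHT relative to cAMP, 0.07 (−0.18 to 0.32, adjusted p = 0.688) in PD+LY relative to 4OHT and −0.11 (−0.36 to 0.15, adjusted p = 0.538) in PD+LY relative to cAMP.

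The receptors were also compared as shares of their pool, without a test. Notch4 held 7.04 and 7.79% of the summed receptor CPM per kilobase in the cAMP libraries, 2.62 and 3.35% in 4OHT and 1.33 and 2.30% in PD+LY. Notch2 held 29.8 and 26.0% in cAMP, 31.6 and 30.9% in 4OHT and 44.8 and 39.9% in PD+LY, while Notch3 held 31.2 and 39.4%, 31.3 and 33.7%, and 22.4 and 24.3%. The PD+LY libraries thus had the highest Notch2 and the lowest Notch3 and Notch4 shares. The summed receptor level itself was 27.8 and 26.3 CPM per kilobase in cAMP, 20.8 and 21.5 in 4OHT and 24.2 and 21.5 in PD+LY, with the cAMP libraries highest. No test was made because with 2 libraries against 2 an exact two-sided permutation test cannot give a p under 0.333.

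**Figure D2:**
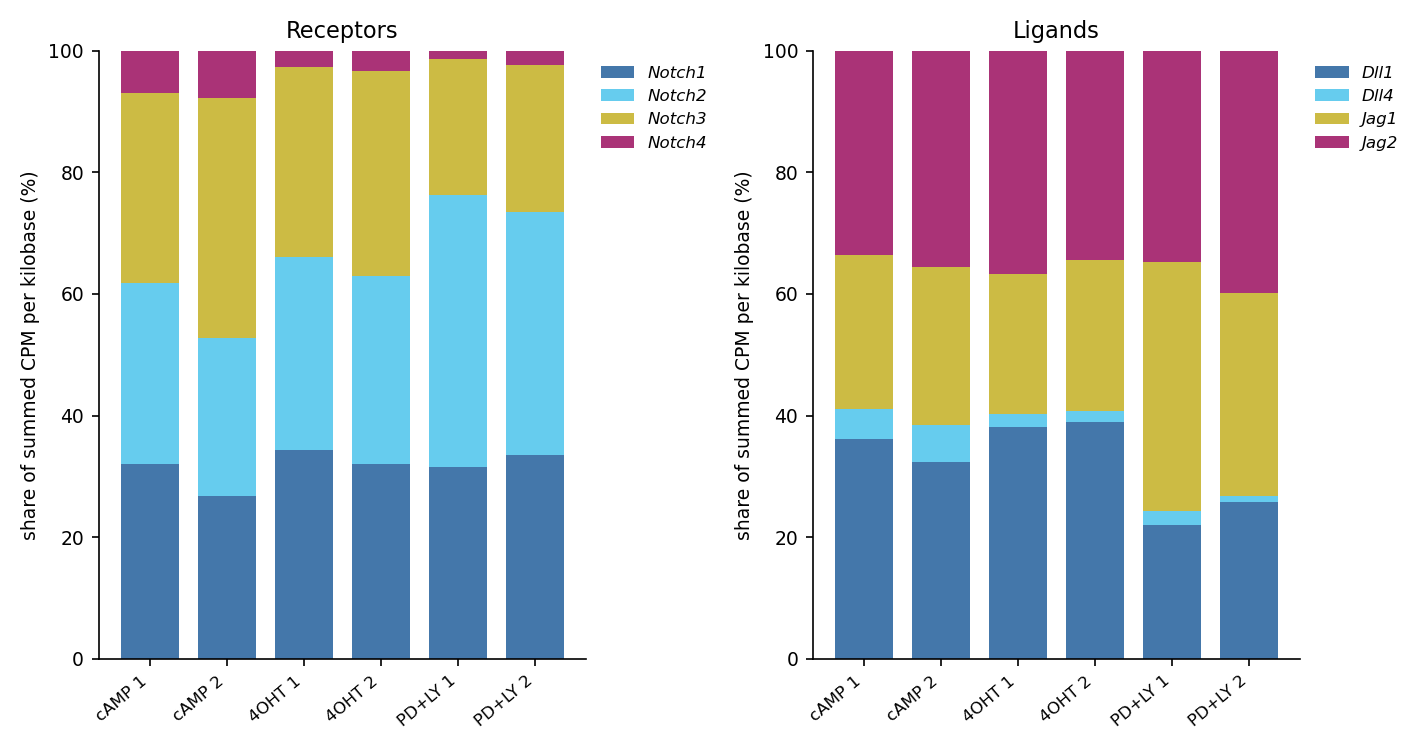
Share of each receptor (left) and each ligand (right) in the summed CPM per kilobase of its family, in percent, with 1 bar per library. The Notch4 band narrows from 7.04 and 7.79% in cAMP to 1.33 and 2.30% in PD+LY, and the Dll1 band is narrowest in the PD+LY libraries.

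Among the ligands, Dll1 and Jag2 fell with the inhibitors relative to both other groups, and Dll4 fell in PD+LY relative to cAMP. Dll1, a Delta-like ligand known from progenitor fields, was at 19.4 and 18.6 CPM in cAMP, 21.3 and 25.6 in 4OHT and 6.21 and 8.02 in PD+LY. Both PD+LY libraries lay far below the other 4, and no groups overlapped. Dll1 fell 3.30-fold in PD+LY relative to 4OHT (−1.72, SE 0.18, adjusted p = 6.21e-05) and 2.66-fold relative to cAMP (−1.41, SE 0.18, adjusted p = 0.000147), a DEG in both. Between 4OHT and cAMP Dll1 differed by 0.31 (interval −0.05 to 0.67, adjusted p = 0.283), which did not pass. The gene that overlaps Dll1 on the other strand, A930024N18Rik, is not listed in the count table under this name, so its part in the Dll1 counts is not known.

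Jag2, a Jagged ligand, was at 29.8 and 33.8 CPM in cAMP, 33.9 and 37.5 in 4OHT and 16.1 and 20.5 in PD+LY. Its pattern was close in order to that of Dll1, with both PD+LY libraries below the other 4. Jag2 fell 1.95-fold in PD+LY relative to 4OHT (−0.96, SE 0.15, adjusted p = 0.000937) and 1.74-fold relative to cAMP (−0.80, SE 0.15, adjusted p = 0.00239), and was not a DEG because both changes were under 2-fold. It passed the 2-fold mark in the first comparison when 4OHT library 1 (−1.03) or PD+LY library 2 (−1.15) was left out. Between 4OHT and cAMP Jag2 differed by 0.17 (interval −0.15 to 0.49, adjusted p = 0.533).

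Dll4, the Delta-like ligand of vascular sprouts, was the lowest of the 10 genes. It had 39 and 66 counts in cAMP, 16 and 21 in 4OHT and 12 and 6 in PD+LY, or 2.45 and 3.21, 1.07 and 1.15, and 0.611 and 0.292 CPM, where 3 counts correspond to 0.146 to 0.200 CPM. The groups did not overlap, in the order cAMP, 4OHT, PD+LY. Dll4 fell 6.26-fold in PD+LY relative to cAMP (−2.65, SE 0.47, adjusted p = 0.00155), a DEG, and the value was −3.26 without PD+LY library 1. The difference between 4OHT and cAMP was −1.35 (interval −2.27 to −0.43, adjusted p = 0.0712) and that between PD+LY and 4OHT −1.30 (interval −2.41 to −0.18, adjusted p = 0.0883), and neither passed. The latter was −1.91 without PD+LY library 1 and −0.85 without PD+LY library 2. The 4OHT value passed in 5 of 11 alternatives, with adjusted p values from 0.0238 to 0.321. Those were no filter on low counts (0.0238), a fit on both compared groups alone (0.0308), the replicate number as a block (0.0464), and a fit without PD+LY library 1 (0.0396) or library 2 (0.0380).

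Jag1, the Jagged ligand of bile duct and vessel development, was at 18.8 and 20.8 CPM in cAMP, 17.9 and 22.5 in 4OHT and 15.9 and 14.4 in PD+LY. The 4OHT libraries spanned both cAMP libraries, and the PD+LY libraries were lowest. No comparison passed, with 0.03 (interval −0.31 to 0.38, adjusted p = 0.931) in 4OHT relative to cAMP, −0.42 (−0.76 to −0.07, adjusted p = 0.0807) in PD+LY relative to 4OHT and −0.39 (−0.73 to −0.04, adjusted p = 0.0969) in PD+LY relative to cAMP.

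The 4 ligands summed to 12.7 and 13.7 CPM per kilobase in cAMP, 13.3 and 15.6 in 4OHT and 6.68 and 7.39 in PD+LY, so both PD+LY libraries lay below the other 4. Within this pool the Dll1 share was 36.1 and 32.3% in cAMP, 38.1 and 38.9% in 4OHT and 22.0 and 25.7% in PD+LY. The Jag1 share was 25.3 and 26.1%, 23.1 and 24.7%, and 40.9 and 33.4%, and was highest in PD+LY although the Jag1 level was not. Jag2 kept between 33.6 and 39.8% in every library.

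Of the target genes, Hey1 fell in both groups that had 4OHT and Hes1 in PD+LY, relative to cAMP and by less than 2-fold. Hey1, a repressor that Notch induces in vascular and mesenchymal cells, was at 19.0 and 20.9 CPM in cAMP, 12.5 and 11.7 in 4OHT and 15.2 and 14.1 in PD+LY. All 3 groups were apart, with cAMP highest and 4OHT lowest. Hey1 fell 1.65-fold in 4OHT relative to cAMP (−0.72, SE 0.15, adjusted p = 0.0139) and 1.36-fold in PD+LY relative to cAMP (−0.45, SE 0.15, adjusted p = 0.0448), and differed by 0.28 between PD+LY and 4OHT (interval −0.06 to 0.61, adjusted p = 0.214). The fall in 4OHT passed in 9 of 12 alternatives, with adjusted p values up to 0.145, and that in PD+LY relative to cAMP in 4 of 12, with values up to 0.258.

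Hes1, the repressor that most Notch receptors induce and that other pathways also control, was at 28.9 and 34.6 CPM in cAMP, 23.9 and 30.4 in 4OHT and 21.7 and 21.4 in PD+LY. The cAMP and 4OHT libraries overlapped, and both PD+LY libraries lay below them. Hes1 fell 1.47-fold in PD+LY relative to cAMP (−0.56, SE 0.15, adjusted p = 0.0182), in 11 of 12 alternatives, with adjusted p values up to 0.171. It differed by −0.22 in 4OHT relative to cAMP (interval −0.55 to 0.11, adjusted p = 0.406) and by −0.34 in PD+LY relative to 4OHT (interval −0.67 to −0.00, adjusted p = 0.133), and neither passed.

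**Figure D3:**
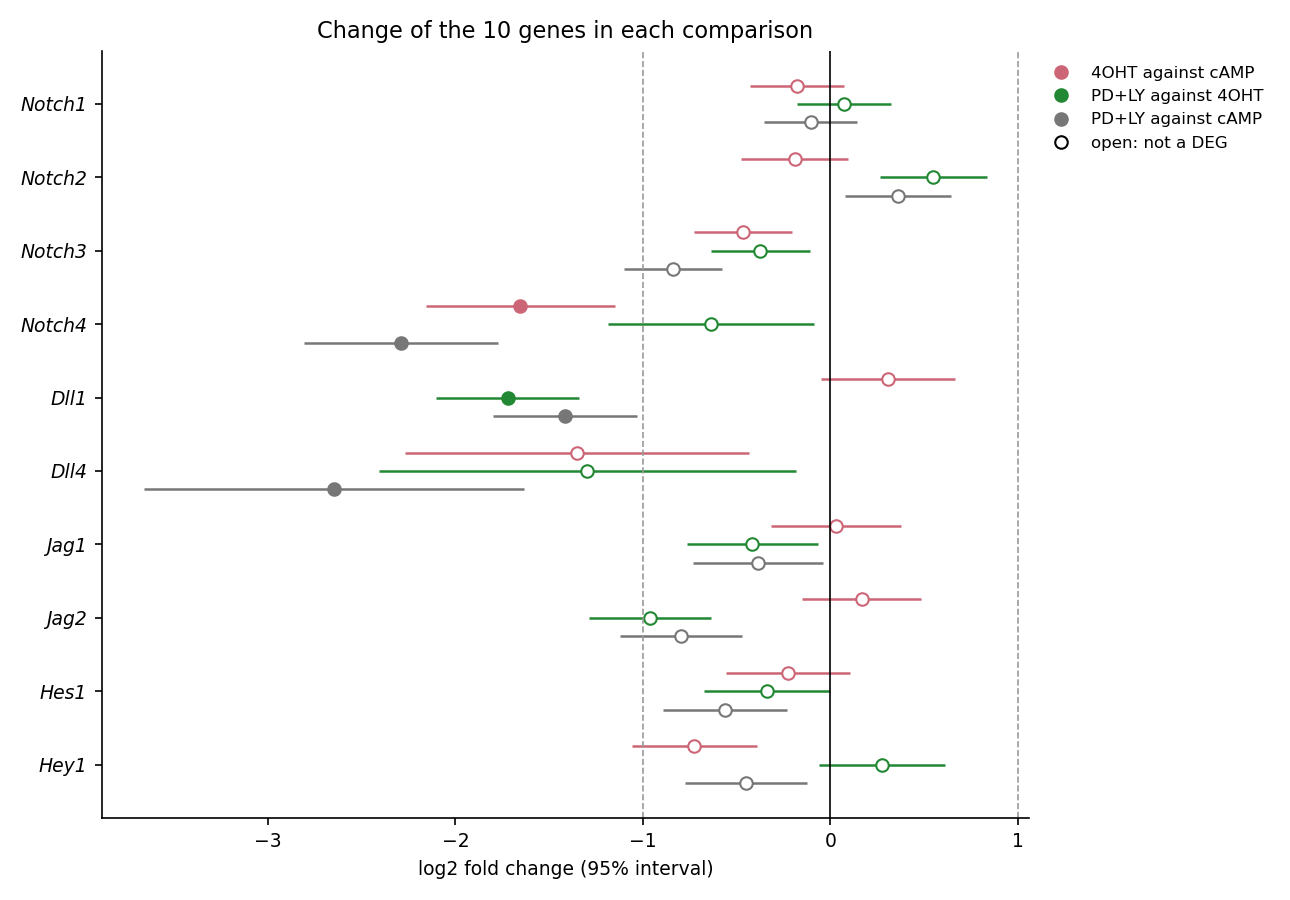
Log2 fold change of the 10 genes in the 3 comparisons, with 95% intervals from the edgeR fit over 6 libraries. Filled points are DEGs (adjusted p under 0.05 and at least 2-fold), open points are not, and dashed lines mark a 2-fold change. The filled points are Notch4 at −1.65 and −2.29, Dll1 at −1.72 and −1.41 and Dll4 at −2.65.

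Counted together, 1 of the 10 genes was a DEG in 4OHT relative to cAMP, where 2.67% of all tested genes were DEGs and 1.51% were DEGs that fell. With no fold threshold 3 of the 10 passed, all of them lower, against 8.39% of all tested genes in either direction and 4.35% lower. Between PD+LY and 4OHT, 1 member was a DEG, where the share of all genes was 7.26% and that of DEGs that fell 4.90%, and 4 passed without the fold threshold, 3 lower and 1 higher, against 22.7% in either direction and 12.1% lower. Between PD+LY and cAMP, 3 members were DEGs, all lower, against 9.24% of all genes in either direction and 6.24% lower, and 7 passed without the fold threshold, all lower, against 25.7% in either direction and 13.7% lower. The median log2 fold change over the 10 genes was −0.21, −0.39 and −0.68 in the 3 comparisons, where that over all tested genes was −0.00, 0.01 and 0.00. The DEG counts in the first 2 comparisons rest on Notch4 and on Dll1 alone.

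Markers of other cell types moved with some of these genes in some of the comparisons. Of 15 endothelial markers, 14 were tested. In 4OHT relative to cAMP 5 of them were DEGs that fell, 0 rose as DEGs, and the median was −0.58. Kdr, the main receptor of vascular endothelial growth factor, fell by 2.31 on the log2 scale (adjusted p = 0.000688), and Cdh5, the cadherin of endothelial junctions, fell by 1.47 (adjusted p = 0.00381), from 7.96 ± 0.573 to 2.86 ± 0.0115 CPM (SD, n = 2), both named after their values were seen. A comparison of PD+LY with cAMP gave 6 DEGs that fell and a median of −1.06, and one of PD+LY with 4OHT gave 2 and a median of −0.29. In PD+LY relative to 4OHT 10 of the 14 had negative values and 4 positive ones. Kdr (0.66, edgeR adjusted p = 0.139) and Cdh5 (0.49, adjusted p = 0.177) were among the positive ones and did not pass. Notch4 (−0.64) and Dll4 (−1.30) were negative there and did not pass either. Over all tested genes, DEGs that fell made up 1.51% in 4OHT relative to cAMP. Their share was 6.24% in PD+LY relative to cAMP and 4.90% in PD+LY relative to 4OHT.

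The summed CPM of the 15 endothelial markers was 316 and 328 in cAMP, 325 and 330 in 4OHT and 273 and 279 in PD+LY. Pecam1, Egfl7 and Eng made up 70.9 to 87.0% of that sum, and Pecam1, which pluripotent cells also express, rose in 4OHT by 0.36 (adjusted p = 0.0271). Without these 3, the sum was 87.8 and 95.5 CPM in cAMP, 53.3 and 60.0 in 4OHT and 46.7 and 36.2 in PD+LY, a split made after the values were seen. Emcn had 4 and 3 counts in cAMP, 4 and 1 in 4OHT and 0 and 0 in PD+LY and was not tested. The sum of these 12 was highest in the 2 cAMP libraries, where Notch4 and Dll4 were also highest. That of all 15 overlapped between cAMP and 4OHT. The 3 genes left out, Pecam1, Egfl7 and Eng, had log2 values of 0.36, 0.05 and 0.04 in 4OHT relative to cAMP. The part of the endothelial markers in the changes of Notch4, Dll4 and Hey1 was not tested.

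**Figure D4:**
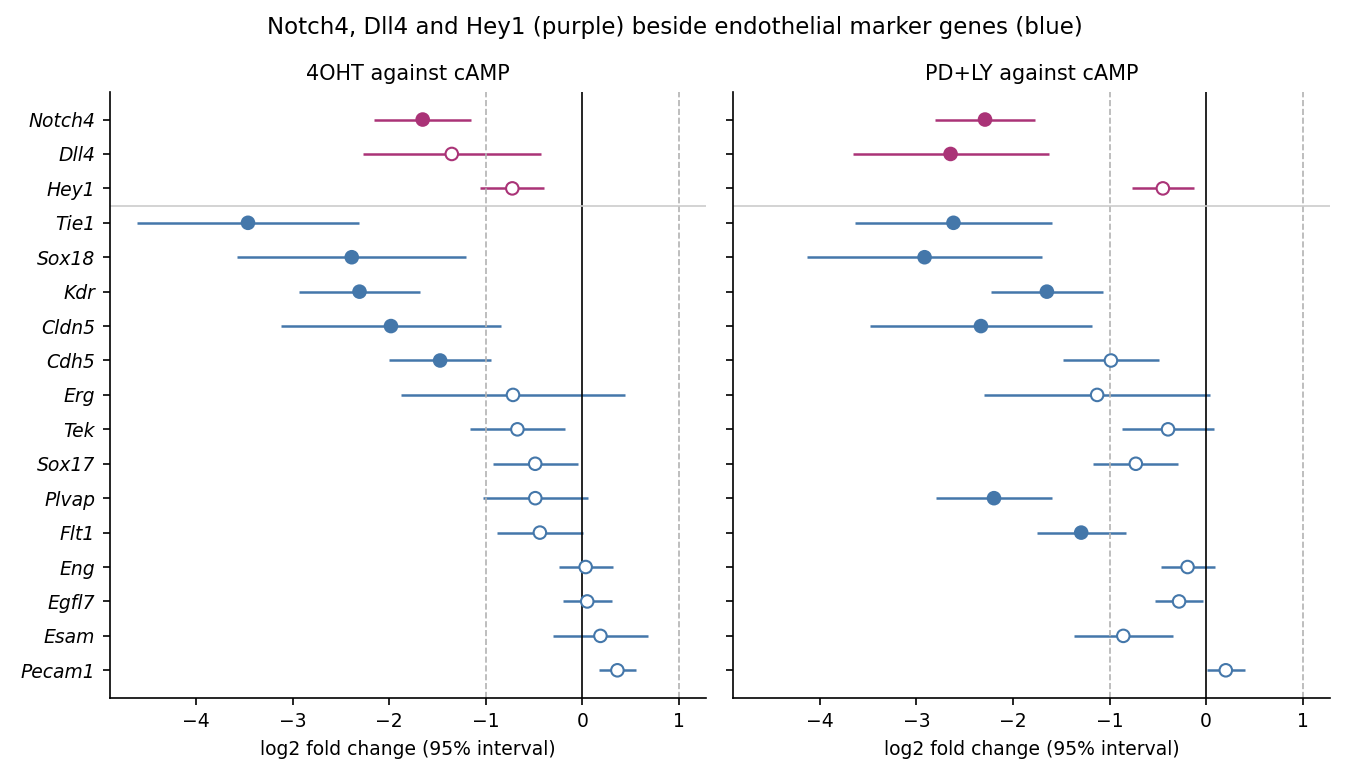
Log2 fold change with 95% intervals of Notch4, Dll4 and Hey1 (purple) beside the 14 tested endothelial markers (blue), relative to cAMP. Filled points are DEGs and dashed lines mark a 2-fold change. The markers range from −3.46 to 0.36 in 4OHT and from −2.92 to 0.20 in PD+LY. All 10 members together range from −1.65 to 0.31 and from −2.65 to 0.36. Lying inside the marker ranges therefore does not set Notch4 apart from the other members.

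Notch3 moved differently from the summed mural markers. Those 10 genes summed to 284 and 336 CPM in cAMP, 385 and 376 in 4OHT and 618 and 477 in PD+LY, led by Acta2 and Tagln, which smooth muscle and myofibroblasts share. In PD+LY relative to cAMP 4 of the 10 were DEGs that rose and 2 were DEGs that fell. In that comparison 9.24% of all tested genes were DEGs and 6.24% were DEGs that fell. Among the genes of the list known from pericytes, all named after their values were seen, Pdgfrb (−1.06, adjusted p = 0.000578) and Abcc9 (−2.06, adjusted p = 0.000182) fell. Mcam had a negative value that did not pass (−0.26, adjusted p = 0.0975). Cspg4 (1.05, adjusted p = 0.0613), Rgs5 (0.35, adjusted p = 0.625) and Kcnj8 (0.17, adjusted p = 0.769) had positive values that did not pass. Des, shared with muscle, rose (1.31, adjusted p = 5.24e-05). The 10 mesenchymal markers summed to 1190 and 1300 CPM in cAMP, 2240 and 2350 in 4OHT and 4850 and 4110 in PD+LY. Col1a1, Col1a2 and Col3a1 led this sum, with means of 1340, 1310 and 1340 CPM in PD+LY. In PD+LY relative to cAMP 5 of the 10 were DEGs that rose and 0 were DEGs that fell, with 7 positive and 3 negative values. Thy1, named after its values were seen, fell by less than 2-fold (−0.73, adjusted p = 0.00687). The part of the mesenchymal markers in the values of Notch2, Notch3 and Hey1 was not tested. The 10 neural progenitor markers summed to 58.8 and 59.0, 47.3 and 54.8, and 67.2 and 72.8 CPM, led by Nes and Pax6. Their median went the other way in PD+LY relative to cAMP (−0.65), where 3 of the 8 tested were DEGs that fell (Sox1, Sox3 and Fabp7, named after their values were seen) and 0 were DEGs that rose. The 8 haematopoietic markers summed to 67.3 and 71.3, 61.4 and 68.4, and 33.1 and 34.7 CPM, of which Cd68, a gene of lysosomes, was 63.6 and 66.1, 56.2 and 61.2, and 30.8 and 32.6 CPM, and Ptprc, Adgre1 and Hbb-bs were at 0 in every library.

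Beyond the 10 genes, 64 other genes of the pathway were listed by role, and 61 were tested. The number of DEGs among them was 0 in 4OHT relative to cAMP, 6 in PD+LY relative to 4OHT (2 higher, 4 lower) and 6 in PD+LY relative to cAMP (1 higher, 5 lower). The share of DEGs over all tested genes was 2.67, 7.26 and 9.24%. With no fold threshold 4, 19 and 21 of the 61 passed, where 8.39, 22.7 and 25.7% of all tested genes did. Their median log2 fold change was −0.06, 0.04 and 0.07. Without 4OHT library 2 or PD+LY library 1 the second count was 2, and without cAMP library 2 the third was 2.

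Of the other ligands, Dlk1, a membrane protein related to Delta that lacks the usual receptor-binding domain, was at 24.5 and 32.4 CPM in cAMP, 40.2 and 56.6 in 4OHT and 13.1 and 13.3 in PD+LY. It rose in 4OHT relative to cAMP (0.76, SE 0.18, adjusted p = 0.0218) and fell in PD+LY relative to 4OHT (−1.88, SE 0.19, adjusted p = 5.33e-05) and to cAMP (−1.11, SE 0.19, adjusted p = 0.00113). The 3 groups did not overlap, and the PD+LY libraries were lowest, as for Dll1 and Jag2. Mfap5, a microfibril protein able to bind Notch1, was at 1.82 and 0.877 CPM in cAMP, 3.07 and 1.32 in 4OHT and 6.77 and 3.94 in PD+LY, and rose in PD+LY relative to both (1.31, adjusted p = 0.0494, and 2.02, adjusted p = 0.00731). The first of these was a DEG in 9 of 12 alternatives and was lost with DESeq2 size factors and without 4OHT library 2 or PD+LY library 1 (adjusted p up to 0.334), and the second was lost without cAMP library 2. Dll3, a Delta-like protein that acts inside the ligand-making cell, fell in PD+LY relative to cAMP (−1.35, SE 0.43, adjusted p = 0.0395), from 27 and 48 to 13 and 19 counts, a call kept in 4 of 12 alternatives and lost with DESeq2, in the fit on both compared groups alone and without any 1 of the 6 libraries.

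Of the regulators, Dtx1, a Deltex ubiquitin ligase that binds the receptor's intracellular domain, was at 46.6 and 56.7 CPM in cAMP, 51.0 and 56.3 in 4OHT and 19.8 and 23.0 in PD+LY. It fell in PD+LY relative to 4OHT (−1.33, SE 0.14, adjusted p = 7.85e-05) and to cAMP (−1.27, SE 0.14, adjusted p = 5.9e-05), with both PD+LY libraries below the other 4. Neurl1b, a ubiquitin ligase for ligand endocytosis, was at 6.93 and 7.90 CPM in 4OHT and 3.21 and 3.79 in PD+LY and fell in PD+LY relative to 4OHT (−1.08, SE 0.23, adjusted p = 0.00637), a call lost without 4OHT library 2 or PD+LY library 1. No gene of the glycosyltransferases (5 tested), processing proteases (10), nuclear complex (9) or corepressors (11) was a DEG in any of the 3 comparisons. Rbpj, the DNA-binding partner of the receptors and named after its values were seen, was at 282 and 247 CPM in cAMP, 304 and 282 in 4OHT and 198 and 159 in PD+LY, and fell by less than 2-fold in PD+LY relative to 4OHT (−0.72, SE 0.12, adjusted p = 0.00118).

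Of the 8 other Hes and Hey targets, 5 were tested, since Hes2, Hes3 and Hes7 were removed by the filter on low counts. Hes5, a target known from neural progenitors, had 22 and 25 counts in cAMP, 4 and 14 in 4OHT and 0 and 1 in PD+LY. Its summed level was 51.9 times as high in cAMP as in PD+LY, with an exact counting interval of 8.87 to 2090, and 21.8 times as high in 4OHT as in PD+LY, with an interval of 3.44 to 907. The fall was a DEG in both comparisons (adjusted p = 0.00202 and 0.0220), the second lost without 4OHT library 2 or PD+LY library 1. Hey2, a repressor of vessels and heart, fell in PD+LY relative to cAMP (−1.46, SE 0.47, adjusted p = 0.0405), from 36 and 33 to 12 and 16 counts, in 6 of 12 alternatives. It was lost with DESeq2 and without either cAMP library, either PD+LY library or 4OHT library 2. Heyl, the Hey gene of mural cells, had 5 and 8 counts in 4OHT and 39 and 19 in PD+LY and rose (1.88, SE 0.62, adjusted p = 0.0477), in 5 of 11 alternatives. It was lost with DESeq2 and without either cAMP library, either 4OHT library or PD+LY library 1. Relative to cAMP the PD+LY value of Heyl was 1.37, the 1 positive value among the 5 tested targets.

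**Figure D5:**
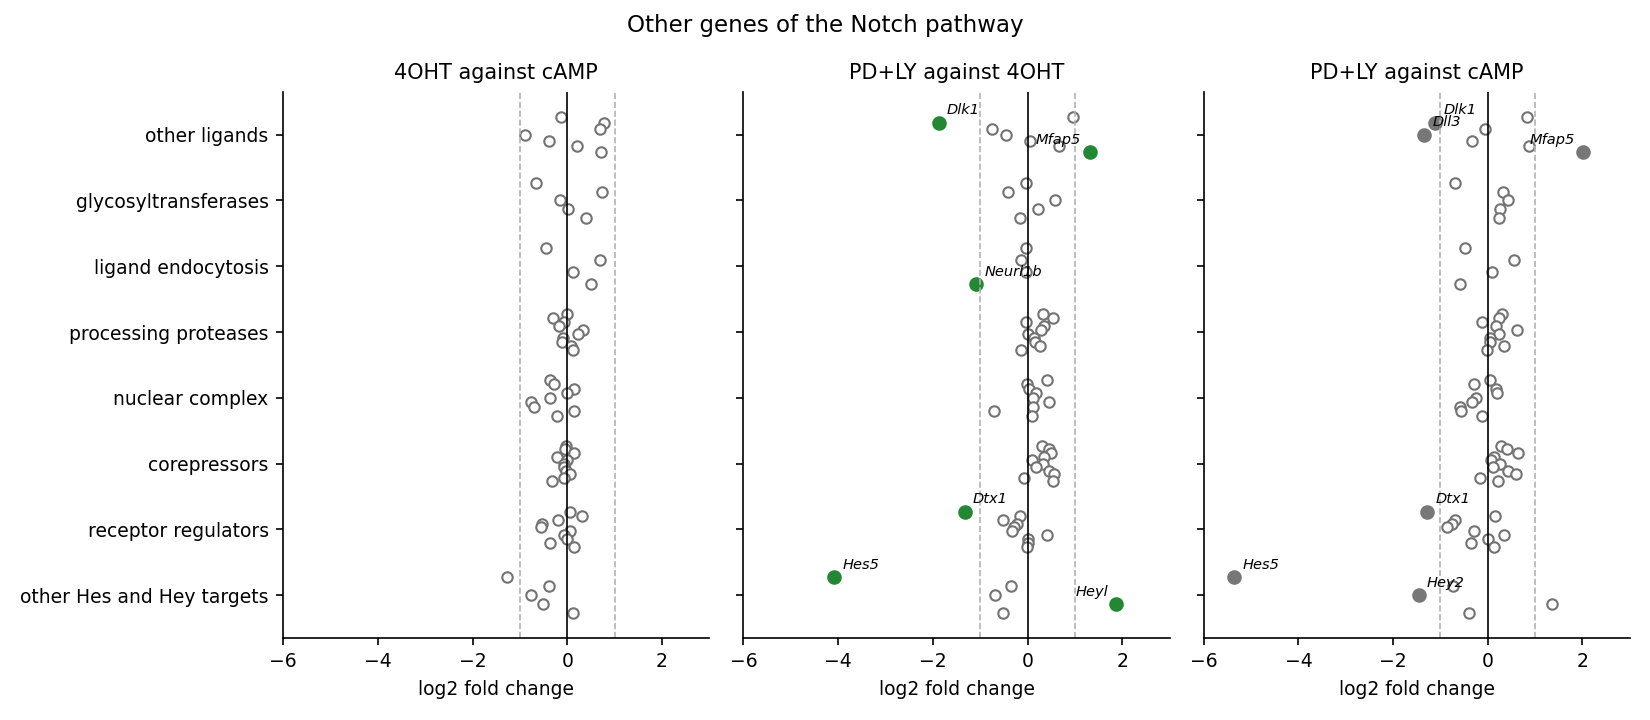
Log2 fold change of the 61 other tested genes of the Notch pathway, grouped by role, 1 panel per comparison. Filled and named points are DEGs, open points are not, and dashed lines mark a 2-fold change. The Hes5 point rests on 0 and 1 counts in PD+LY, so its fitted position depends on how low counts are handled.

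As a description, the genes whose log2 CPM followed each of the 3 DEG members most closely over the 6 libraries were listed. For Notch4 they were Nfx1 (Pearson r = 0.9992), Gclm (0.9958) and Inppl1 (0.9947), for Dll1 Aldh1l1 (0.9985), Zap70 (0.9980) and 5530601H04Rik (0.9974), and for Dll4 Rian (0.9973), Ccdc77 (0.9960) and Drp2 (0.9938). Zap70 was at 7.17 and 7.26 CPM in cAMP, 9.14 and 10.5 in 4OHT and 1.22 and 1.99 in PD+LY, near in order to Dll1. With 6 libraries in 3 groups such values are common, as 179, 383 and 201 of 12224 genes passed 0.95 for Notch4, Dll1 and Dll4, and the libraries share their group and preparation.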

How the data were processed

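Thyroid organoids of 3 groups with 2 libraries each were profiled by RNA-seq with a stranded mRNA kit. The deposited values are raw read counts per gene symbol. According to the methods, the authors trimmed paired-end reads with Trimmomatic, aligned them to mm10 with HISAT2 and counted genes with HTSeq without strand, so that reads of overlapping genes on opposite strands cannot be separated. The gene annotation is not given in the sources used here.

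The test was edgeR 4.0.16 in R 4.3.3. Low counts were filtered with filterByExpr (10 per library, 15 in total), library sizes were scaled by TMM (0.9905 to 1.007), and 1 quasi-likelihood model of the 3 groups was fitted to all 6 libraries, and the Benjamini-Hochberg adjustment covered the 15256 tested genes. DEGs had adjusted p values under 0.05 and changed at least 2-fold. Replicates varied beyond counting error, by a chi-square over its degrees of freedom of 8.06 for cAMP, 4.47 for 4OHT and 17.3 for PD+LY (edgeR common dispersion as a coefficient of variation, 0.105). No source states that the 2 libraries of a group came from separate differentiations, so p values measure the spread between these libraries. Intervals on single counts and the floor of 3 counts cover counting error only.

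Exon lengths and overlaps came from GENCODE M21 on GRCm38, and start-site windows from RefSeq on GRCm38.p6. The members, the lists of pathway and marker genes and the comparisons were chosen with earlier results of these data known. Other pathway genes were named where they were DEGs in any comparison, at most 12 by smallest p, and genes alike in pattern as the 3 highest correlations of log2 CPM (prior count 2) among genes averaging at least 50 counts. Others are said in the text to have been named after their values were seen. Alternatives were DESeq2 1.42.0, its size factors, both other filters, a fit on the compared groups alone, the replicate number as a block, no fold threshold and each library left out. The procedure was tested on simulated data.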

Additional observations from a re-analysis of the deposited data

How the results depend on the processing

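Of 357 alternative fold changes of the 10 genes, 347 kept their direction and their side of the DEG threshold, 7 became DEGs and 3 changed sign. The number of members that were DEGs in 4OHT relative to cAMP was 2 with no filter on low counts, 2 in a fit on the compared groups alone and 3 without the fold threshold, and 1 to 2 when single libraries were left out, where Dll4 was added by leaving out either PD+LY library. In PD+LY relative to 4OHT it was 4 without the fold threshold and 1 to 2 with single libraries left out, where Jag2 was added. In PD+LY relative to cAMP it was 7 without the fold threshold. Over all genes, genes that passed without the fold threshold numbered 1280, 3469 and 3925 in the 3 comparisons. With the fold threshold kept, the 408 DEGs of 4OHT relative to cAMP became 164 (without 4OHT library 1) to 478 when single libraries were left out, with 268 without cAMP library 1 and 221 without 4OHT library 2, and the 1107 of PD+LY relative to 4OHT became 630 (without 4OHT library 2) to 1164. Jag1 in 4OHT relative to cAMP was −0.04 without cAMP library 1 and, when either 4OHT library was left out, −0.14 (library 2) and 0.19 (library 1), and Notch1 in PD+LY relative to cAMP ran from −0.25 (without cAMP library 2) to 0.070 (without cAMP library 1). Dll4 had too few counts to be tested where 10 counts were required in every library. The causes were not tested.

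With the replicate block, the members that were DEGs in 4OHT relative to cAMP numbered 2, Notch4 and Dll4 (adjusted p = 0.0464), and the block changed no other DEG call among the 10 genes. Libraries with the same number had correlated deviations from their group means (r = 0.158, 0.421 and 0.101 over 12224 genes), but with 2 numbers these do not show that the libraries were paired.

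Dll4, Hes5 and Heyl rest on few counts, which limits their precision, and with 2 libraries per group the spread is known mainly from other genes.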
